A study of Mus musculus with 12 samples.

Results

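The distal end of the mouse X chromosome was followed here, from 150 Mb to the telomere, for reads of its second allele during reprogramming of embryonic fibroblasts. Members were single-base variants covered by at least 20 reads at position 150000000 or beyond in the tables of 12 libraries. Sites of 8 genes were left out by the same rule, namely Kdm5c, Eif2s3x, Pdha1, Acot9, Tmsb4x, Huwe1, Phf8 and Maged2. This gave 918 of the 6478 X chromosome sites, in 59 of 399 genes, between positions 150409347 and 170673498 (mm10). Of these sites 370 lay in coding sequence, 360 in untranslated regions, 74 in introns and 21 in exons of noncoding transcripts. A further 80 had no single gene, and 13 carried a gene name that GENCODE M21 does not list.

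Poly(A) RNA was sequenced from mouse embryonic fibroblasts (MEF1 and MEF2, day 0) and from cells of 3 courses reprogrammed with SeVdp(fKOSMaB), a Sendai virus vector. The LowK course had no Shield1 and was sampled on days 35, 52 and 56. MidK1 had 30 nM Shield1 on the same days, and MidK2 had 30 nM Shield1 on days 18, 22, 29 and 36. Shield1 is a small molecule that stabilises proteins carrying a destabilising domain. Each course and day is 1 library, so the tests below compare the reads of 2 libraries and say nothing of the spread between cultures. The labels say neither whether MEF1 and MEF2 came from separate cultures nor which mouse strains the cells carry.

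Female mammals silence 1 of their X chromosomes in each cell, a state set up by the noncoding RNA Xist and kept by chromatin marks and DNA methylation. Reprogramming to pluripotency can reverse it, and reads of the silent copy then return gene by gene. In hybrid cells the alleles differ at known bases, so the share of reads without the variant base, here the reference share, measures the second allele where the variant is carried by the active copy. A share near 0% means reads of the variant allele alone, and 50% equal reads of both. A library holds RNA of many cells, so a few cells reading both alleles fully and many cells reading the second allele weakly cannot be told apart.

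The 8 coding windows that follow show variant bases of genes described below, each with 31 bases in the sense of the transcript, 5′ to 3′, from GENCODE M21 (mm10). The Zrsr2 base was listed in 11 libraries and the Gpm6b base in 6. Neither is therefore among the sites that give the printed courses of these genes. The capital is the variant site, position 16 from the 5′ end, with the reference base shown. The windows come from genes with unlike courses and from Smc1a, whose base had few reference reads in MidK2.
Tspyl2, chrX:152337522-152337552, minus strand, change A16C: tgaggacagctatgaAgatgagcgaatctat
Sat1, chrX:155215653-155215683, minus strand, change C16T: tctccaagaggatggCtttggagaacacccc
Prdx4, chrX:155330323-155330353, minus strand, change T16C: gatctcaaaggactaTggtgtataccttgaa
Syap1, chrX:162857926-162857956, minus strand, change T16G: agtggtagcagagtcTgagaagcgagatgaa
Zrsr2, chrX:163936686-163936716, minus strand, change G16A: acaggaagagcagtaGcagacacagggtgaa
Gpm6b, chrX:166387029-166387059, plus strand, change G16A: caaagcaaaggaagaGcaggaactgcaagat
Rab9, chrX:166457861-166457891, minus strand, change C16T: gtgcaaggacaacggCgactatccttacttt
Smc1a, chrX:152058844-152058874, plus strand, change G16A: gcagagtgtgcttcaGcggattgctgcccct

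At these single bases the course of MidK2 could be read directly. At the Sat1 base, reference reads were 3 of 191 in MEF2, 4 of 220 on day 18, 21 of 225 on day 22, 40 of 345 on day 29 and 67 of 357 on day 36. At the Prdx4 base they were 2 of 188, 9 of 94, 16 of 74, 14 of 72 and 4 of 97 in the same libraries. The Sat1 base thus gained reference reads at each day, whereas the Prdx4 base was highest on days 22 and 29 and low again on day 36. At the Smc1a base they were 0 of 74, 3 of 78, 5 of 108, 2 of 124 and 0 of 182, at most 4.63% in any of these libraries. In MidK1 on day 56 the same base had 8 of 71. At the Gpm6b base, listed in 3 of the MidK2 libraries, they were 1 of 22 on day 22, 9 of 24 on day 29 and 17 of 46 on day 36.

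Each library had 160 to 504 distal sites in 26 to 48 genes, with a summed coverage of 7145 to 23724 reads and a median of 30 to 39 reads per site. The tables fall into 2 sets with different caller limits, one with MEF1, LowK and MidK1 and one with MEF2 and MidK2, and each reprogrammed library was compared with the fibroblasts of its own set. Genes of the fibroblast list (Bgn, Timp1, Fhl1, Srpx, Srpx2 and Tnmd) held 24% and 23.1% of the coverage at X sites within genes in MEF1 and MEF2 and 0.358 to 1.77% in the reprogrammed libraries. Tnmd was listed in no library.

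Shares below follow 1 set of sites through the libraries, namely those listed in all 12 or, where a gene has none, throughout its course. Tests compare sites listed in both libraries of a pair. Over all sites listed in each library, which are not the same sites from library to library, several shares differed, above all in MEF2 and MidK2. Their tables hold more bases read mostly as reference: 261 of 565 values at sites listed in that set alone had under 20% variant reads, against 23 of 1361 at sites listed in both sets. Shares over all listed sites are therefore given beside the main courses that they alter.

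In fibroblasts most distal genes were read almost only from the variant allele at the bases shared by all libraries. At these 71 sites, which lie in 15 genes, the median reference share per gene was 3.07% in MEF1 and 1.45% in MEF2. Tmem29 was the exception among the 15, with 25% (19 of 76 reads, 95% interval 16.6 to 35.8) in MEF1 and 31.7% (32 of 101 reads, 23.4 to 41.3) in MEF2. Fibroblast values of the other 14 genes ran from 0 to 9.03%. The 2 libraries were not alike for all of them: Syap1, a synapse-associated protein gene, had 6.33% in MEF1 and 0.831% in MEF2 over 11 shared sites (Fisher's exact test, adjusted p = 7e-06 by the Benjamini-Hochberg method over the X genes of the pair), but 11.6% in MEF2 over all its listed sites. At shared sites, 5 of 21 distal genes were lower in MEF2 than in MEF1 at an adjusted p under 0.05, and 0 higher. These were Eif1ax, Ofd1, Sat1, Smc1a and Syap1. Of all X genes, 52 of 174 were lower and 1 higher. Smc1a, like Syap1, turned over all listed sites. Counts against fibroblasts thus rest on a lower baseline in MidK2 than in LowK and MidK1, and are not directly comparable. All intervals are 95% Wilson intervals. Like the tests, they hold the error of counting reads and no other, since reads carry no molecular identifiers and neighbouring sites can lie on 1 read.

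**Figure D1:**
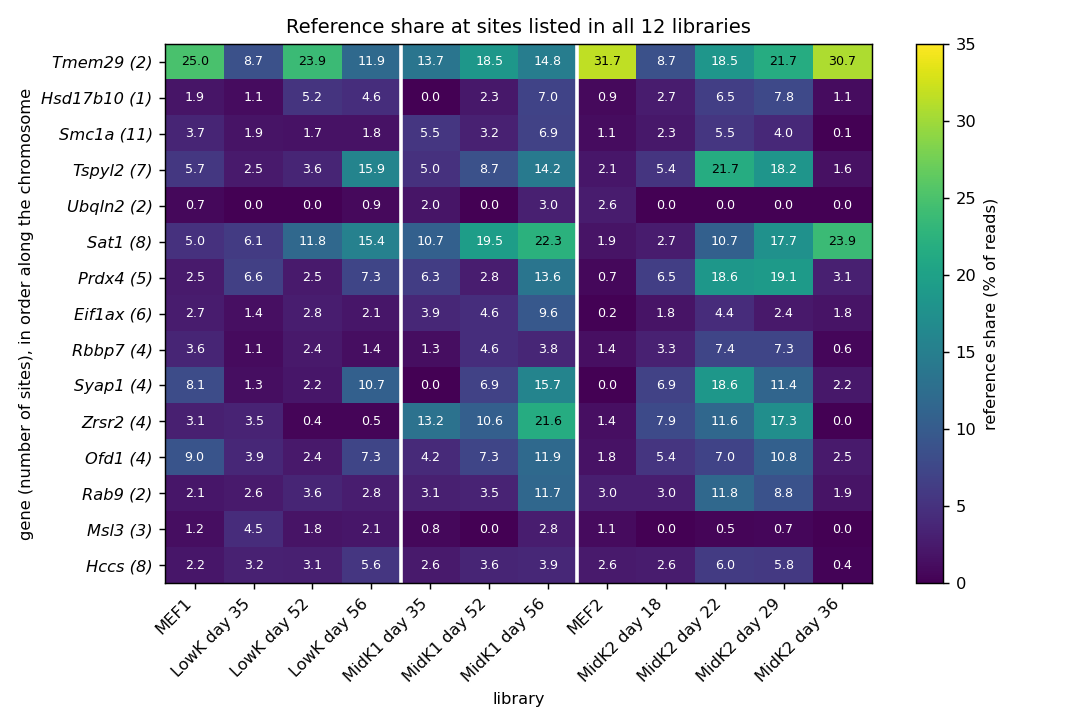
Reference share (% of reads, colour and printed value) of the 15 genes with sites listed in all 12 libraries, with genes in order along the chromosome, the number of sites in parentheses and libraries on the horizontal axis; white lines part the LowK, MidK1 and MidK2 columns with their fibroblasts (MEF1 serves LowK and MidK1). Sat1 rises to the last day of each course, while Tspyl2, Prdx4 and Syap1 are high in MidK2 on days 22 and 29 and at 1.55 to 3.07% on day 36.

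The plot of the 71 shared sites shows the overall order. The median over the 15 genes was 2.56, 2.5 and 4.62% in LowK on days 35, 52 and 56, and 3.9, 4.58 and 11.7% in MidK1 on the same days. In MidK2 it was 2.95, 7.38, 8.82 and 1.55% on days 18, 22, 29 and 36. The median was thus highest on the last day of LowK and of MidK1, and on day 29 in MidK2, with a low value on day 36. Beside this, the fibroblast list held 1.05, 1.77, 1.68 and 0.437% of that coverage on the 4 days of MidK2. Coverage of Xist sites was 348, 65, 98 and 416 reads on the same days. In the other libraries it was 254 reads in MEF2, 23 in MEF1, 0, 75 and 44 in LowK and 0, 0 and 57 in MidK1. The LowK and MidK1 values follow days 35, 52 and 56, and 0 means that no Xist site was listed. Xist coverage in MidK1 was thus highest on the day of its highest median. The part of the fibroblast list and of Xist in the result was not tested.

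Without Shield1, few distal genes gained reference reads. Against MEF1, none of 21, 21 and 20 distal genes was called on days 35, 52 and 56, where a call needs both a gap of 20 percentage points or more and an adjusted p under 0.05. Over all X genes tested, the called share was 1.23, 1.76 and 4.91%. At an adjusted p under 0.05 and any size of difference, which is what higher and lower mean from here on, 1, 1 and 4 distal genes were higher. Over all X genes that share was 4.91, 10.6 and 22.1%. Lower distal genes numbered 2, 2 and 1: Rbbp7 and Tmem29 on day 35, Ofd1 and Smc1a on day 52, and Smc1a on day 56. Of all X genes, 22 of 163, 20 of 170 and 12 of 163 were lower. The median difference of the distal genes was -1.26, -0.884 and 0.187 points. At an unadjusted p under 0.05, by the same Fisher's exact test, 5, 4 and 7 distal genes differed from MEF1 in either direction.

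The 4 genes that were higher on LowK day 56 were Sat1, Tspyl2, Prdx4 and Ctps2, a CTP synthase gene. Ctps2 had 13.9% over 3 sites against 2.38% in MEF1 (Fisher's exact test, adjusted p = 0.0275). Tspyl2 (chrX:152336852-152342425), a gene of the nucleosome assembly protein family, had 5.68% (95% interval 3.35 to 9.47) in MEF1, 2.54% (1.17 to 5.43) on day 35, 3.62% (1.98 to 6.54) on day 52 and 15.9% (11.8 to 20.9) on day 56, at 7 sites. Its share stayed under 6% until day 52 and rose between days 52 and 56, with a difference of 10.1 points between days 56 and 52 over 13 sites (Fisher's exact test, adjusted p = 2.82e-06). From day 52 to 56, 4 of 35 distal genes rose, Tspyl2, Prdx4, Ctps2 and Car5b, against 16.2% of all X genes. From day 35 to 52, 2 of 33 rose, Sat1 and Gpm6b, against 12.3%.

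In MidK1 more distal genes were higher than in MEF1 on day 56 than on the earlier days. No distal gene was called against MEF1 on day 35 (of 19), day 52 (of 18) or day 56 (of 20), while the called share of all X genes was 8.5, 12.9 and 14.1%. At an unadjusted p under 0.05, by the same Fisher's exact test, 6, 2 and 8 differed. Of the distal genes, 2, 2 and 8 were higher, against 23.5, 25.2 and 41% of all X genes. The 2 early genes were Sat1 and Zrsr2 on both days. The 8 on day 56 were these with Tspyl2, Prdx4, Syap1, Rab9, Eif1ax and Gm45022. Lower distal genes numbered 1, 0 and 0 on the 3 days, with Syap1 on day 35. Of all X genes, 8 of 153, 6 of 155 and 2 of 156 were lower.

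From day 52 to 56 of MidK1, 8 of 32 distal genes rose, against 25.8% of all X genes, and from day 35 to 52 it was 4 of 34, against 12%. Prdx4 (chrX:155323918-155340754), a peroxiredoxin gene of the endoplasmic reticulum, had 2.51% in MEF1, 6.34% on day 35, 2.77% on day 52 and 13.6% (95% interval 10.3 to 17.8, 44 of 323 reads) on day 56. Eif1ax (chrX:159372178-159389928), which encodes a translation initiation factor, had 2.69, 3.90, 4.61 and 9.63% (7.85 to 11.8, 84 of 872 reads) in the same libraries. Both had their highest MidK1 value on day 56, and each rose from day 52 (Fisher's exact test, adjusted p = 4.32e-07 and 0.000469). Rab9 (chrX:166457253-166479867), a GTPase gene of late endosomes, went from 3.51% to 11.7% at 2 sites. Of 17 distal genes with sites in every MidK1 library and MEF1, 14 had their highest share on day 56, and the same day was the highest for 56.9% of all X genes so measured.

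In MidK2 many distal genes were read from the second allele by day 22. Against MEF2, the genes that were higher numbered 5 of 24 on day 18, 16 of 24 on day 22, 13 of 24 on day 29 and 3 of 26 on day 36. Over all X genes these shares were 28, 67.4, 54.1 and 22.9%. Lower distal genes numbered 1, 1, 0 and 1, namely Tmem29 on days 18 and 22 and Smc1a on day 36. Of all X genes, 2 of 189, 1 of 187, 1 of 181 and 3 of 192 were lower. Of the 17 distal genes that passed in either direction on day 22, 13 passed in the same direction over all listed sites, while Ctps2, Rab9, Sh3kbp1 and Smc1a then had a lower share than MEF2. On day 29 this was so of 10 of 13, with Rab9 and Sh3kbp1 turned, and on day 36 of 4 of 4. Calls of at least 20 points came to 1, 0, 0 and 1 distal genes, against 2.12, 9.63, 9.94 and 10.4% of all X genes. The day 18 call was Tmem29, which was lower, and the day 36 call was Sat1. At an unadjusted p under 0.05, by the same Fisher's exact test, 11, 17, 13 and 4 distal genes differed from MEF2.

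Day 18 already set a few genes apart. Sh3kbp1, an adaptor protein gene, had 2.78% in MEF2 and 20% (21 of 105 reads, 95% interval 13.5 to 28.6) on day 18, then 17.9, 21.4 and 5.47% on days 22, 29 and 36 at 3 sites. The order was the reverse over all its listed sites, with 73% (241 of 330 reads, 12 sites) in MEF2 and 21.5% (143 of 666, 14 sites) on day 18. Prdx4 had 0.743% in MEF2, 6.49% (4.55 to 9.16) on day 18, 18.6% (72 of 388 reads) on day 22, 19.1% (15.3 to 23.5) on day 29 and 3.07% (1.80 to 5.19) on day 36. The 5 sites of Prdx4 were listed in every library, and it gained most of its share between days 18 and 22 (difference 12.1 points, Fisher's exact test, adjusted p = 1.03e-06).

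Between days 18 and 22, 13 of 36 distal genes rose and none fell, against 40.6% of all X genes that rose. Tspyl2 had 2.14% (8 of 374 reads) in MEF2, 5.37% (18 of 335) on day 18 and 21.7% (73 of 337) on day 22. Syap1 (chrX:162857057-162888447) had no reference read among 285 in MEF2, which allows a share of up to 1.05%, then 6.87% on day 18 and 18.6% on day 22 at 4 sites. Over all listed sites Syap1 had 28.5 and 28.6% on days 18 and 22. Tsr2, a gene of ribosome biogenesis, was at 0 of 56 and 0 of 84 reads in MEF2 and on day 18, which allow shares of up to 5.36 and 3.57%, and at 11.9% (10 of 84) on day 22. With all listed sites it had 29.2% (63 of 216) on day 18 and 14.1% (27 of 192) on day 22, so its direction turned. Tspyl2 had 22.6 and 30.8% over all listed sites on these days, a difference of 8.16 points (Fisher's exact test, adjusted p = 0.00121). Of the 13 genes, 10 passed as higher over all listed sites too. The other genes that rose were Prdx4, Sat1, Rab9, Rbbp7, Gnl3l, Smc1a, Prps2, Sms, Phka2 and Tmem29.

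From day 22 to 29 few genes moved. Gpm6b and Sat1 rose, 2 of 38 against 7.86% of all X genes, and Gnl3l fell, 1 of 38 against 5.36%. Gnl3l (chrX:150983141-151017322), a GTPase gene of the nucleolus, had 1.49, 4.75, 11.7, 3.41 and 0.665% in MEF2 and on days 18, 22, 29 and 36 at 8 sites. At these sites its share was highest on day 22 and lower on day 29, when Prdx4 and Tspyl2 were still high. Over all its listed sites it had 17.6, 14.1 and 11.7% on days 22, 29 and 36, and neither step passed (Fisher's exact test, adjusted p = 0.222 and 0.292). Of the 3 genes that passed, Sat1 was the 1 that also passed over all listed sites. Of 22 distal genes with sites in every MidK2 library and MEF2, 13 had their highest share on day 22, 5 on day 29 and 2 on day 36, against 50, 29.7 and 12.2% of all X genes. The pair of day 36 was Sat1 and Map7d2, and the share of Map7d2 rested on 1 reference read of 47.

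Many distal genes had a lower share in the day 36 library than on day 29. Between days 29 and 36, 15 of 42 distal genes fell, against 36.2% of all X genes, and 2 rose, against 4.83%. Of these 17 genes, 15 passed in the same direction over all listed sites, and the others, Gnl3l and Gpm6b, kept their direction. Tspyl2 went from 18.2% (37 of 203 reads, 95% interval 13.5 to 24.1) to 1.55% (4 of 258, 0.605 to 3.92), and over all listed sites from 32.8 to 11.3%. Syap1 went from 11.4 to 2.21%, and over all listed sites from 31.6 to 20.9%. Rbbp7 (chrX:162760402-162779092), which encodes a histone-binding protein, went from 7.29 to 0.567%. In Smc1a (chrX:152016428-152062694), a cohesin subunit gene, 29 of 724 reads were reference on day 29 and 1 of 1207 on day 36 (Fisher's exact test over 12 shared sites, adjusted p = 4.54e-12). The day 36 values of these genes were at or below those of day 18, while coverage at the distal sites was highest of all libraries on day 36. Sms, which encodes spermine synthase, went from 17.6% (24 of 136) to 0.87% (1 of 115) at 4 sites. The genes of both directions were measured in 1 library a day, so a difference between days and a difference between libraries cannot be told apart.

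Sat1 (chrX:155213132-155216449), which encodes the enzyme that acetylates spermidine and spermine, was the only gene of the 15 shared by all libraries whose share was highest on the last day of every course. At 8 sites, LowK had 6.10% on day 35, 11.8% on day 52 and 15.4% (133 of 865 reads, 95% interval 13.1 to 17.9) on day 56, after 4.96% in MEF1. MidK1 had 10.7, 19.5 and 22.3% (212 of 950, 19.8 to 25.1) on the same days. MidK2 had 1.89% in MEF2, 2.68% on day 18, 10.7% on day 22, 17.7% on day 29 and 23.9% (628 of 2630, 22.3 to 25.5) on day 36. The share was thus higher on each later day of each course, and MidK2 on day 36 stood near MidK1 on day 56.

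The steps of Sat1 differed in their support. In MidK2 the rise was 8.05 points from day 18 to 22 (Fisher's exact test, adjusted p = 1.22e-18), 6.93 points from day 22 to 29 (adjusted p = 5.07e-08) and 6.14 points from day 29 to 36 (adjusted p = 3.37e-07). In MidK1 it was, by the same exact test, 8.81 points from day 35 to 52 (adjusted p = 1.29e-06) and 2.82 points from day 52 to 56 (adjusted p = 0.347). In LowK the exact test gave 5.69 points (adjusted p = 0.00744) and then 3.58 points (adjusted p = 0.313). The last step of LowK and of MidK1 therefore did not pass the test. Against MEF2 the day 36 share was 22.0 points higher (Fisher's exact test, adjusted p = 3.69e-79), and against MEF1 it was 18.9 points higher, which is under the size that a call needs. The 8 sites were not independent, since 3 of them lie within 7 bases, at 155213572, 155213575 and 155213578.

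**Figure D2:**
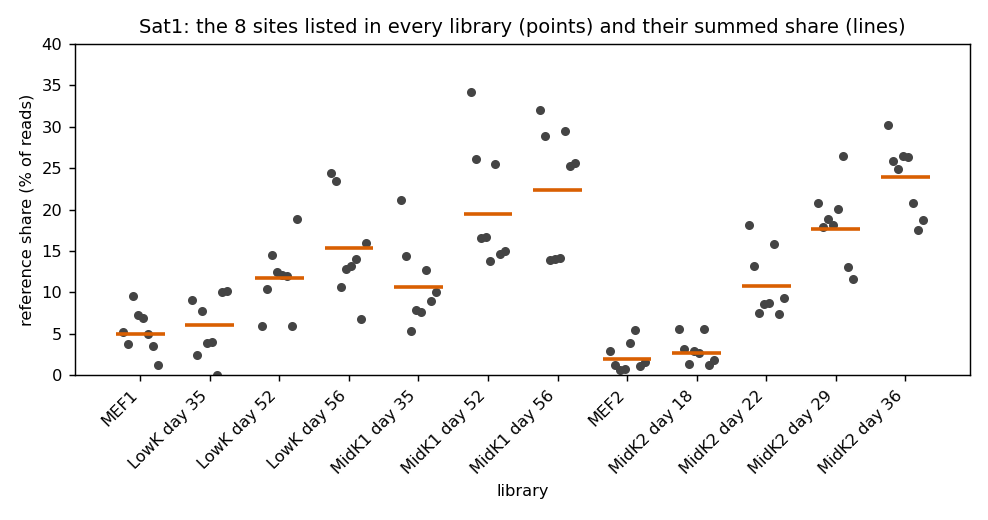
Reference share (% of reads) of Sat1 in the 12 libraries, with a point for each of the 8 sites listed in all of them and a line for the share of their summed reads. The line climbs to 15.4% in LowK, 22.3% in MidK1 and 23.9% in MidK2, and the sites of a library spread around it.

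Gpm6b (chrX:166238911-166388988), a membrane protein gene of the proteolipid family, was not listed in fibroblasts, and its share also rose to the last day of MidK2. At 3 sites it had 5.68% (13 of 229 reads) on day 18, 10.3% (20 of 195) on day 22, 19.8% (44 of 222) on day 29 and 31.4% (125 of 398, 95% interval 27.0 to 36.1) on day 36. The steps from day 22 to 29 and from day 29 to 36 passed Fisher's exact test (adjusted p = 0.00571 and 0.00779), and that from day 18 to 22 did not (adjusted p = 0.184). Over all its listed sites Gpm6b had 5.68, 27.8, 28.6 and 35.3%, with little difference between days 22 and 29 (Fisher's exact test, adjusted p = 0.952) and 6.69 points between days 29 and 36 (adjusted p = 0.058). Piga (chrX:164419787-164433916), which acts in the first step of the lipid anchor of surface proteins, had 1.37, 3.75, 12.1 and 15.1% on the same days at 2 sites, and none of its steps passed Fisher's exact test (adjusted p = 0.79, 0.617 and 0.669). Over all its listed sites, 5 to 22 a day, Piga had 50, 21.7, 20.8 and 22.4%, so it had no upward course there.

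**Figure D3:**
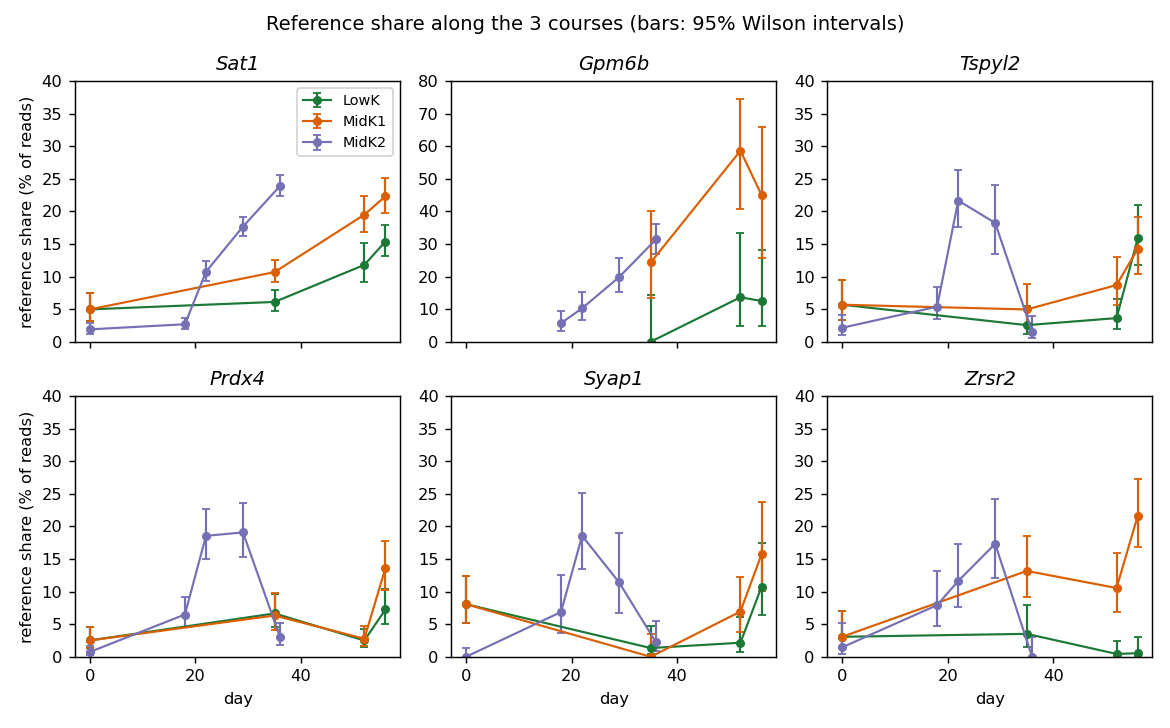
Reference share (% of reads) against day for 6 genes, with 1 line for each course, fibroblasts at day 0 where the gene is listed there, and bars for 95% Wilson intervals; the Gpm6b panel has a wider vertical axis. At the sites drawn, Sat1 and Gpm6b have their highest MidK2 share on day 36, while Tspyl2, Prdx4, Syap1 and Zrsr2 are between 0 and 3.07% in that library. The highest point of Gpm6b is in MidK1, at 58.6% on day 52.

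Grouped by function, the 5 lists each had genes that were higher on day 22 of MidK2 than in MEF2, as were 67.4% of all X genes. The chromatin and transcription list had 3 of 4 tested genes higher, Tspyl2, Rbbp7 and Smc1a, with a median difference of 6.19 points. The list of RNA, ribosome and DNA maintenance had 3 of 3 higher, Gnl3l, Tsr2 and Zrsr2, with a median of 9.54 points. The metabolism list had 4 of 6 higher, Sat1, Prdx4, Ctps2 and the mitochondrial dehydrogenase gene Hsd17b10, with a median of 7.21 points. The list of membrane traffic, protein fate and cilia had Syap1, Rab9 and the centriole gene Ofd1 higher and Tmem29 lower among 5, with a median of 4.55 points. The kinase and signalling list had 1 of 2 higher, Sh3kbp1. Smc1a, Ctps2, Rab9 and Sh3kbp1 are the genes named above whose direction turned over all listed sites. The median difference over all X genes was 7.95 points, and over all distal genes 7.83 points.

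Between days 29 and 36, 36.2% of all X genes were lower. In the lists, lower genes numbered 3 of 4 for chromatin, 2 of 5 for RNA and ribosome, 5 of 12 for metabolism, 3 of 9 for membrane traffic and 1 of 3 for kinases. The median differences were, in the same order, -5.59, -3.28, -5.03, -0.454 and 0 points. The metabolism genes that fell were Prdx4, Sms, Phka2, Ctps2 and Hccs, which encodes the lyase that attaches heme to cytochrome c. Sat1 was the 1 metabolism gene that rose, and Gpm6b the 1 gene of membrane traffic that rose. On day 56 of MidK1, against MEF1, 41% of all X genes were higher. Higher genes then numbered 1 of 4 for chromatin, 1 of 2 for RNA and ribosome, and 2 of 5 each for metabolism and membrane traffic. On day 56 of LowK, with 22.1% of all X genes higher, these were 1 of 4, 0 of 2, 3 of 5 and 0 of 5. The medians were 1.84, 11.3, 7.62 and 2.75 points in MidK1 and -0.35, -3.1, 4.75 and -0.783 points in LowK. Smc1a was lower in LowK. No gene of the kinase list was tested against MEF1 on these days.

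For some genes the sites followed through all libraries and the full set of listed sites gave unlike levels. Msl3, a gene of a chromatin complex that binds active genes, had at most 4.49% in any library at 3 sites, and in MidK2 0 of 149, 1 of 199, 1 of 149 and 0 of 191 reads. The 0 counts allow shares of up to 2.01 and 1.57%. Over all its listed sites it had 13.7% in MEF2 and 6.76, 10.6, 11.1 and 1.77% in MidK2. Ubqln2, a ubiquilin gene of protein turnover, had no reference read in MidK2 at its 2 followed sites, with 86 to 98 reads a day. Over all its listed sites it had 1.42% in MEF2 and 0, 24.7 (69 of 279 reads), 15.5 (38 of 245) and 0.398% (1 of 251) in MidK2. Smc1a had 5.55% (41 of 739 reads, 95% interval 4.12 to 7.44) on day 22 at its followed sites and 11.8% over all listed sites, against 13.3% in MEF2 over all listed sites. Eif1ax had 4.40% (40 of 910, 3.24 to 5.93) and 4.57% on day 22 by the same 2 measures, so that level depended little on the choice of sites. On day 18 it had 1.84% (14 of 760) at its followed sites and 7.66% (75 of 979) over all listed sites.

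MidK1, with 30 nM Shield1, had higher reference shares at the distal end than LowK on each of the 3 shared days. MidK1 was higher than LowK in 8 of 33 distal genes on day 35, 10 of 33 on day 52 and 14 of 34 on day 56, and lower in none. Over all X genes 34.9, 29.9 and 37% were higher. The median difference of the distal genes was 1.43, 2.5 and 3.39 points, and that of all X genes 2, 1.92 and 2.9 points. At least 20 points with an adjusted p under 0.05 was reached by 1, 2 and 1 distal genes, against 7.66, 8.61 and 8.64% of all X genes. At an unadjusted p under 0.05, by the same Fisher's exact test, 9, 14 and 15 distal genes differed. All 8, 10 and 14 distal genes also passed as higher over all listed sites. The 2 courses with 30 nM Shield1 differed too. MidK2 on day 36 was lower than MidK1 on day 35 in 6 of 35 distal genes and higher in 2, with a median of -1.69 points. Of all X genes, 75 of 246 were lower and 15 higher. Gnl3l, Hccs and Tspyl2 turned over all listed sites. With 1 library per course and day, Shield1 and a difference between courses cannot be told apart.

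**Figure D4:**
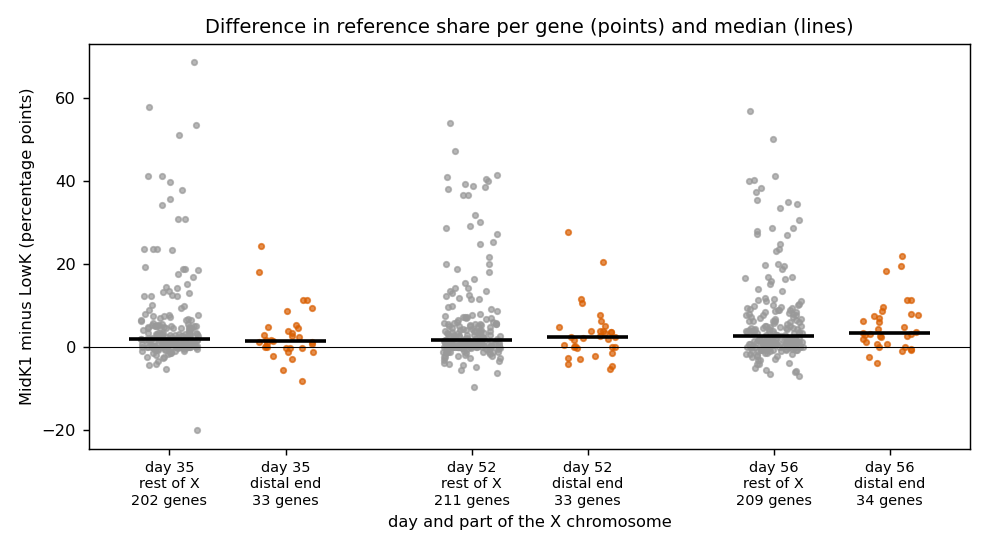
Difference in reference share between MidK1 and LowK (percentage points) for each gene on days 35, 52 and 56, with 1 point a gene, distal genes in orange, the rest of the X chromosome in grey and black lines at the medians. The distal medians are 1.43, 2.5 and 3.39 points, and those of the rest 2.09, 1.78 and 2.67 points.

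Zrsr2, Sat1 and Smc1a were higher in MidK1 on all 3 days. Zrsr2 (chrX:163935443-163958661), a splicing factor gene of the minor introns, had 13.2, 10.6 and 21.6% (51 of 236 reads, 95% interval 16.8 to 27.3) in MidK1 on days 35, 52 and 56 at 4 sites. In LowK it had 3.52, 0.437 and 0.546% (1 of 183 reads) on the same days. The values of MidK1 were above those of LowK on each day, by 9.48, 11.6 and 19.5 points over the 10 to 15 sites shared by each pair (Fisher's exact test, adjusted p = 7.41e-05, 1.59e-08 and 1.08e-18). Over all sites listed, its share was 32.9% in MidK1 and 6.6% in LowK on day 56, and 26.5% in MidK2 on day 36, where its 4 shared sites had 0 of 125 reads. Mouse has a near-identical autosomal copy of this gene, Zrsr1, whose reads could align here, so its share is uncertain.

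The Sat1 difference between MidK1 and LowK was 4.58, 7.71 and 6.94 points (Fisher's exact test, adjusted p = 0.00121, 0.00231 and 0.000877). Eif1ax was 2.47 points higher on day 35 (Fisher's exact test, adjusted p = 0.00205) and 7.56 points higher on day 56 (adjusted p = 1.42e-12), and 1.86 points higher on day 52 without passing the test (adjusted p = 0.0643). Tspyl2 was not among the genes that passed on any of the 3 days, and on day 56 it had 14.2% in MidK1 and 15.9% in LowK at its 7 sites. Over all its listed sites the order on day 56 turned, with 25.5% (138 of 541 reads) in MidK1 and 13.6% (61 of 447) in LowK. Prps2 (chrX:167346322-167382749), which makes phosphoribosyl pyrophosphate for nucleotides, was 2.54 points higher on day 52 and 3.53 points on day 56.

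Gpm6b was, with Gm21887, the gene that reached 20 points between MidK1 and LowK. At the 1 site listed on all days it had 0 of 23, 3 of 22 and 4 of 32 reads in LowK and 9 of 37, 17 of 29 and 9 of 20 in MidK1. On day 52, over 9 sites, it had 46.2% in MidK1 and 25.6% in LowK (Fisher's exact test, adjusted p = 3.62e-06), and on day 56, over 3 sites, 32.8 and 14.5% (adjusted p = 0.0397). These MidK1 values lay above those of LowK on the same day. Single sites did not all have that order: at 166387243 on day 52, LowK had 34 of 39 reads and MidK1 18 of 28. With the site of highest coverage alone the day 52 difference was 6.86 points and did not pass.

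Tmem29 (chrX:150397773-150459154), at the proximal edge of the window, had a course unlike the others. It had 25% in MEF1 and 31.7% in MEF2, then 8.7, 23.9 and 11.9% in LowK, 13.7, 18.5 and 14.8% in MidK1, and 8.73, 18.5, 21.7 and 30.7% in MidK2. Its share fell by 23.0 points between MEF2 and day 18 of MidK2 (2 sites, Fisher's exact test, adjusted p = 8.93e-05). At these 2 sites it returned by day 36 to within the interval of the fibroblasts. Against MEF1 the difference on day 18 was 16.3 points, under the size of a call. The 2 sites had 76 to 168 reads a library in all. Over all listed sites MEF2 had 58% (101 of 174 reads, 4 sites), above the 30.7% of day 36 of MidK2.

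Of 18 genes listed as escaping X inactivation in mouse, 4 had distal sites. Car5b, a mitochondrial carbonic anhydrase gene, had 20.7, 20.7, 24 and 17.1% on the 4 days of MidK2 at 7 sites (36.8, 19.8, 28.3 and 12.8% over all listed sites), with no step that passed the test, and 0 of 32, 0 of 33 and 2 of 26 reads in LowK at 1 site. Mid1, a ubiquitin ligase gene that spans the boundary of the pseudoautosomal region, was listed in fibroblasts alone, with 4.44% in MEF1 (2 sites) and 16.9% in MEF2 (29 sites). Shroom2, a gene of cell shape, had 0 of 26 reads at 1 site on day 29 of MidK2 and 30.7% (27 of 88 reads) over 3 sites on day 36, so the sets of sites differ and were not compared. Asmt, which makes melatonin and lies in the pseudoautosomal region, had 65 to 80.6% in MidK2 at 1 site with 20 to 31 reads. Over all its listed sites it had 86.4, 91.1 (698 of 766 reads, 25 sites), 83.8 and 86.6% on the 4 days. All 29 of its sites lay in introns, so its shares are weak evidence of allele use.

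Gm21887 (chrX:170009659-170019281), beyond Mid1 at the pseudoautosomal end, was called between MidK1 and LowK on days 52 and 56. The day 52 call rested on 1 site, with 15 of 46 reads in MidK1 and 1 of 21 in LowK. At the 7 sites listed throughout MidK1 it had 21.2, 37.4 and 47.8%. At the 7 sites listed throughout MidK2 it had 37.7, 35.6, 34.8 and 36.3%. These were not all the same sites, so the levels of the 2 courses were not compared. MidK1 rose at both steps (Fisher's exact test, adjusted p = 0.000643 and 0.00965), and MidK2 stayed within 3 points of its day 18 value. On day 56 it had 52.3% in MidK1 and 30.2% in LowK over 11 shared sites (Fisher's exact test, adjusted p = 3.94e-11), and by the median of its sites the difference was 9.09 points. Its single sites on day 56 of MidK1 ran from 2.44 to 88.5%. Similar copies of this gene at the chromosome end are not told apart here, so its shares are uncertain.

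Along the window the gain was not limited to 1 stretch. On day 22 of MidK2 the median share in classes of 5 Mb, from 150 to 170 Mb, was 9.79% (8 genes), 10.7% (5 genes), 11.2% (4 genes) and 6.04% (5 genes). On day 56 of MidK1 it was 6.97% (6 genes), 13.6% (3 genes), 18.7% (4 genes) and 7.79% (4 genes). These classes are small and were not tested against each other. Compared with the rest of the X, the distal median on day 22 of MidK2 was 10.8% against 11.1%, and on day 36 it was 1.86% against 3.03%. At day 36, 2 of 22 distal genes had at least 10%, Sat1 and Tmem29, and 34% of the genes on the rest of the X. Without the need for a fibroblast site, 9 of 36 distal genes had at least 10%, and 29.9% of the rest, with medians of 2.36 and 2.53%. At day 56 the distal median was 11.1% against 9.28% in MidK1 and 4.69% against 5.52% in LowK.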

How the data were processed

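Per the labels' protocols, libraries were made from 500 ng of total RNA with poly(A) selection and a strand-specific kit. The deposited tables list variants of the X chromosome against mm10 (the submitters' processing notes), called in CLC Genomics Workbench (Basic Variant Call). For the aligner, read filters and limits of the caller, settings were not given in the sources at hand. Each deposited row holds 2 counts, the reads with the variant and all covering reads, per the file headers. It also holds their ratio as a percent and, in the tables of MEF1, LowK and MidK1 alone, an average base quality score by the authors' caller. Per the deposited tables' values, these 7 tables have no variant under 5 reads or 10%, and the 5 tables of MEF2 and MidK2 none under 2 reads or 5%. The lowest coverage is 10. Positions with reference reads alone are not listed, so a site leaves a table when its reference share nears 90% or 95%, and sites listed only in the second set were of low variant share more often (261 of 565 site values under 20%, and 23 of 1361 at sites in both sets).

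Reference share is 100 times reads without the variant over coverage. Reads were summed per gene over sites listed in both libraries of a pair, and tested with two-sided Fisher's exact tests for all X genes and Benjamini-Hochberg adjustment within each of 22 pairs. The printed shares use sites listed in all 12 libraries where a gene has any, otherwise those of its course, a choice made after seeing the data. Gene positions and sequences come from GENCODE M21. Named genes were those called in any pair, the 10 of highest coverage and those on the escape list, and others were chosen after their values were seen. The members, lists and tests were chosen with earlier results of these data known. The scripts were tested on simulated data. Alternatives were coverage of 10 or 50, calls at 10 points or any size, the highest-coverage site, the median site, single gene names, course-wide sites, fibroblast sites over 90% variant, the other fibroblast library, a base quality of 30 and, chosen after seeing the data, all sites listed in each library. Of the deposited columns, 0 belonged to no sample. Software was Python 3.11.15 with pandas 2.3.3, numpy 2.4.6, scipy 1.17.1 and matplotlib 3.10.9. A list of markers of pluripotent cells is not reported here.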

Additional observations from a re-analysis of the deposited data

Results flagged for a closer look

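The differences between MidK1 and LowK that reached 20 points came from Gpm6b and Gm21887. Gpm6b was 24.3 points higher in MidK1 on day 35, at 1 site with 37 and 23 reads, and 20.6 points higher on day 52. Gm21887 was 27.8 points higher on day 52, at 1 site, and 22.1 points higher on day 56. Each passed Fisher's exact test on the reads of the 2 libraries (adjusted p = 0.0296, 3.62e-06, 0.0463 and 3.94e-11), which does not test a difference between cultures. With the highest-coverage site alone, the Gpm6b difference of day 35 had an adjusted p of 0.0691 and the Gm21887 difference of day 52 one of 0.113.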

How the results depend on the processing

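No paired analysis was possible because each course and day has 1 library and the fibroblast numbers recur in no other group. Differences printed in points reversed as follows. Over all sites listed in each library, an alternative chosen after seeing the data, Sh3kbp1 on day 18 of MidK2 was -51.6 points from MEF2 and Tsr2 on day 22 was -15.1 points from day 18. At the highest-coverage site Gnl3l was 2.08 points higher on day 29 than on day 22 (Fisher's exact test, adjusted p = 1). Counts of distal genes called moved as follows, and the cause was not tested beyond each alternative's own construction. Against the fibroblasts, a limit of 10 points gave 3 genes in LowK on day 56 and 4 in MidK1 on day 56 (each 0 as reported), 6 in MidK2 on day 22 (0 as reported), and 4 for MidK1 against LowK on day 56 (1 as reported). Any size gave 5, 8 and 17 for the first 3 comparisons, 4 for MidK2 on day 36 (1 as reported) and 14 for MidK1 against LowK. The highest-coverage site gave 1 in MidK1 on day 56 (Sat1) and 1 in MidK2 on day 22 (Prdx4). The median site gave 2 in MidK1 on day 56 (Sat1 and Zrsr2) and 0 for MidK1 against LowK. A coverage of 10 gave 1 in MidK2 on day 22 (Mid1), 2 on day 36 (Mid1 and Sat1) and 2 for MidK1 against LowK (Gpm6b and Zrsr2). With the other fibroblast library as baseline (leave-one-out) MidK1 on day 56 ranged from 0 to 2 (Sat1 20.4 points and Zrsr2 20.6 points without MEF1), MidK2 on day 36 from 0 to 1 (Sat1 18.9 points without MEF2), and LowK on day 56 and MidK2 on day 22 stayed at 0. Without the pseudoautosomal end, an alternative chosen after seeing the data, MidK1 against LowK gave 0. All listed sites gave 2 in MidK1 on day 56 (Tspyl2 and Zrsr2), 7 in MidK2 on day 22, 5 in MidK2 on day 36 and 3 for MidK1 against LowK. Course-wide sites and fibroblast sites over 90% variant kept the count of 1 there, but for Zrsr2 (22.0 and 21.1 points) in place of Gm21887.

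Of 33 such differences, 24 kept their direction and side of the threshold over all listed sites and 11 at the highest-coverage site, where 19 no longer passed. Of 42 printed shares in the last library of a course, 11 moved beyond their interval with all listed sites, 19 with the highest-coverage site, 5 of 42 at a coverage of 10 and 3 of 16 at 50, and none with single gene names. The base quality alternative was not run for MEF2 and MidK2, whose tables have no such column. Depth limits thinly covered genes most: 4 of 32 reads of Gpm6b on day 56 of LowK give an interval of 4.97 to 28.1%.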

Other observations

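Txlng, a taxilin gene, had a high reference share on each day of MidK2, with 72.3, 86.4, 81.9 and 69.8% on days 18, 22, 29 and 36 at 3 sites and 52.9, 41.3, 54.2 and 41.9% over all listed sites. On day 35 of MidK1 it had 3.03% (2 of 66 reads) over 3 sites. Gm7331, a processed pseudogene, had 55.3% in MEF1, 56.6, 53.6 and 50.8% in LowK and 45.7, 49.2 and 48.2% in MidK1 at 2 sites. Fibroblasts and reprogrammed cells were thus alike at these sites. Over all its listed sites the reprogrammed libraries ran from 49.2% (MidK1 day 52) to 72.5% (LowK day 56, 411 of 567 reads). Reads of similar copies were not told apart here, so its shares are uncertain. Genes listed in fibroblasts alone numbered 4 of 59, namely Egfl6, Iqsec2, Mid1 and Vegfd, and 26 were listed in reprogrammed libraries alone. Vegfd, a growth factor gene of lymph vessels, had 1.52% in MEF1 over 15 sites and 9.68% in MEF2 over 12, and Egfl6 had 5.50% in MEF1 over 12 sites.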
